A study of Danio rerio with 6 samples.

Results

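The genes described here are the enzymes that the deposited annotation assigns to the KEGG pathway named Glycolysis / Gluconeogenesis. They were taken by that name from the KEGG column of the gene table, and they numbered 77 of the 32057 genes listed. No measured value entered this rule, though earlier results of these data were known when it was chosen. Messenger RNA was measured by bulk RNA-seq in EGFP+ cells sorted from zebrafish embryos that carried the transgene Tg(*fli1a*:EGFP), at 28 hours post-fertilization (hpf). The study's text gives this time for the sort, while some captions of its RNA-seq values give a slightly earlier one. The control MO group (3 samples) came from embryos injected with a standard morpholino. The nlrc3 MO group (3 samples) came from embryos injected with a splice-modifying morpholino against *nlrc3*, an NLR family gene, at a higher concentration than the control morpholino, so that dose and target cannot be told apart. A morpholino is an antisense oligonucleotide that blocks a transcript for a limited time and changes no gene. All 6 samples carried the same transgene, in which the *fli1a* promoter drives EGFP in endothelium and also in cranial neural crest derivatives and some blood cells. The labels do not say whether the 3 samples of a group came from separate clutches, so p-values measure only the spread between these samples.

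Glycolysis breaks glucose down to pyruvate in the cytosol, and gluconeogenesis runs the same path backwards with its own enzymes at the irreversible steps. Pyruvate is then reduced to lactate or enters the mitochondrion as acetyl-CoA. Endothelial cells are known to draw much of their ATP from glycolysis, and mammalian red blood cells depend on it. Most steps are carried out by several isoenzymes, which are separate genes for the same reaction that differ in tissue and regulation, and the teleost genome duplication gave zebrafish additional copies marked a and b.

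Levels are given as FPKM, fragments per kilobase of transcript scaled to the mapped fragments, as deposited. Fold changes are on the log2(FPKM + 0.1) scale, nlrc3 MO minus control MO, which understates the change of low genes. A gene was called where its limma p-value, Benjamini-Hochberg adjusted over all 15155 tested genes, was under 0.05 and its fold change was above 2 or below 0.5. The table gives no read counts, so the depth of the libraries is unknown.

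The libraries differed in more than these enzymes. *nlrc3* itself stood at 0.82, 0.70 and 1.09 FPKM in control MO against 0.26, 0.15 and 0.17 FPKM in nlrc3 MO samples (log2 fold change -1.72, limma adjusted p = 0.00175). It passed the filter of 0.5 FPKM only through control MO samples, so its test does not stand apart from that filter. At its nlrc3 MO levels the pseudocount of 0.1 affects the size of the fold change. The summed FPKM ran from 524846 to 525567 in control MO and from 678620 to 687387 in nlrc3 MO samples, and 14 globin genes took 15.6% to 15.7% and 34.5% to 34.8% of it. All tested genes had a median log2 fold change of -0.22, which was -0.60 as TPM, in which each sample is rescaled to the same total, and -0.013 after median-of-ratios scaling, in which each sample is divided by its median ratio to a mean sample. Of the marker lists, 6 of 7 tested erythroid genes and 4 of 5 myeloid genes were called higher in nlrc3 MO. In the cranial mesenchyme list 4 of 5 genes were called lower. These 4 summed to 401 to 408 FPKM in control MO and 3.06 to 5.37 FPKM in nlrc3 MO samples. The shares to set beside all marker counts here are 4.89% higher and 20.4% lower of all tested genes. With the uncalled gene of the cranial mesenchyme list, *fli1b*, the sums were 437 to 445 and 43.2 to 45.7 FPKM. All 8 endothelial markers were tested and 2 were called lower. These were *fli1a* (mean 205 FPKM in control MO and 90.6 FPKM in nlrc3 MO) and *egfl7* (127 and 48.4 FPKM). The uncalled endothelial markers had log2 fold changes from -0.61 (*cldn5b*) to 0.18 (*etv2*), with *tie1* at -0.08. Summed over the list, the level was 633 to 644 FPKM in control MO and 380.4 to 381 FPKM in nlrc3 MO samples. Of the other lists, 2 of 6 tested neural genes were called lower and 0 of 6 epidermal genes were called (4 higher at an unadjusted p under 0.05). Of the lower calls, *neurod1* (neural) and *barx1* (cranial mesenchyme) passed the filter of 0.5 FPKM only through control MO samples. Their tests do not stand apart from that filter. Not found by symbol, and so not examined, were *hbbe1.1*, *hbae1.1*, *mpeg1.1*, *tnni2a.4*, *apobb.1* and *fabp1b.1*. Of 6 listed yolk syncytial and liver genes 4 were found, and 0 of these passed the filter. No marker that was found was at 0 in all 6 samples. The part of these differences in cell markers in the results below was not tested, and in bulk samples fewer cells of a type and less RNA per cell cannot be told apart.

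Of the 77 enzyme genes, 55 passed the filter of 0.5 FPKM or more in at least 3 samples and were tested. Of these, 1 was called higher in nlrc3 MO, the phosphofructokinase gene *pfkma*, and 11 were called lower. Among all tested genes, 4.89% were called higher and 20.4% were called lower, so that the enzymes' shares of 1.82% and 20% lay below and near the background. Without the fold limit, 37 enzymes had an adjusted p under 0.05, 15 of them higher and 22 lower, which is 67.3% beside 63.1% of all tested genes. The groups did not overlap for 41 of the 55 enzymes (74.5%), beside 68.9% of all tested genes. The median log2 fold change of the enzymes was -0.14, with a range from -2.44 (*gpib*) to 1.58 (*pfkma*).

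**Figure D1:**
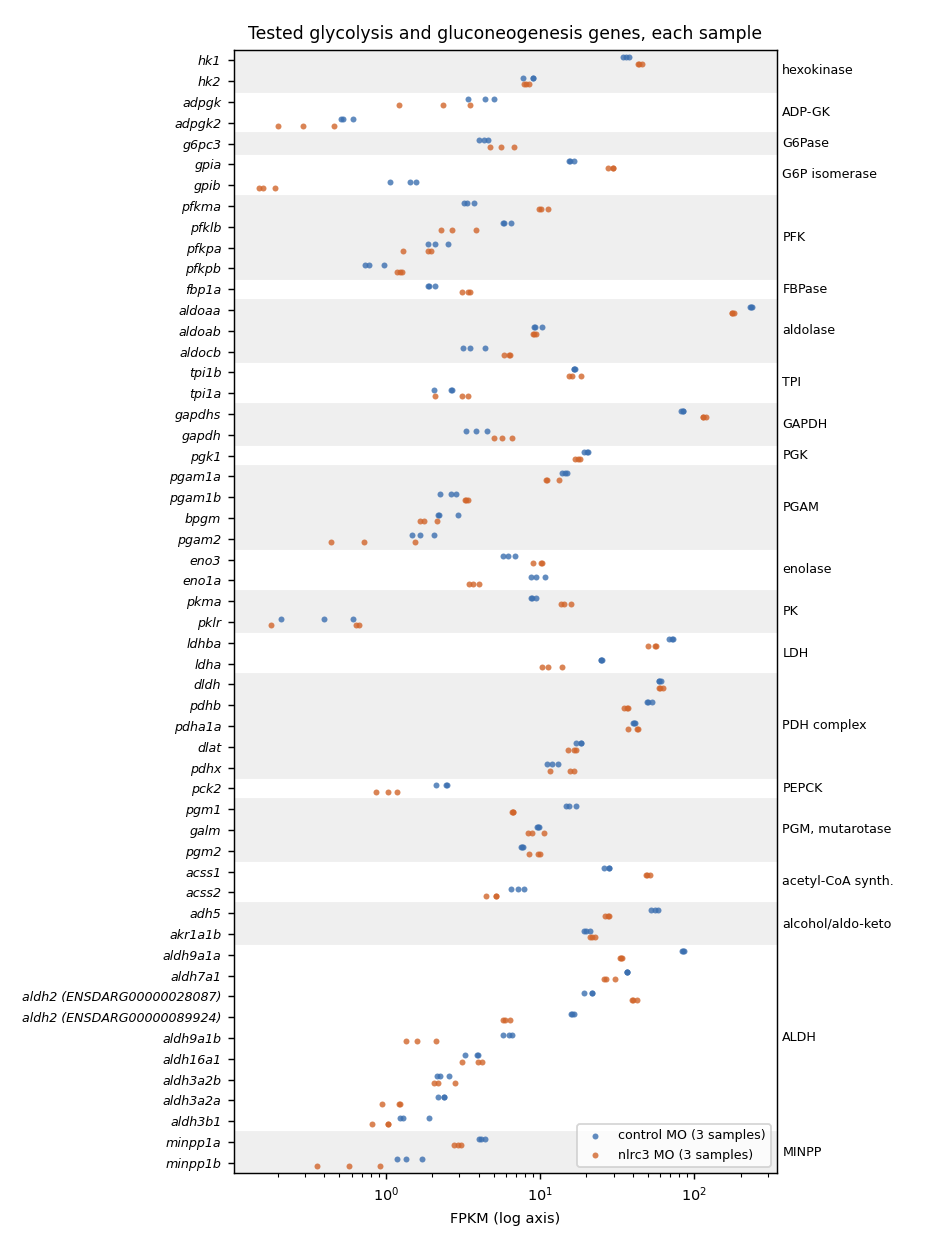
FPKM on a log axis of 54 of the 55 tested genes in each of the 3 control MO (blue) and 3 nlrc3 MO (orange) samples, with genes grouped by enzyme step from hexokinase down to the side reactions. *pfkma* (3.22 to 3.74 against 9.88 to 11.3 FPKM) and *gpib* (1.07 to 1.58 against 0.15 to 0.19 FPKM) mark the highest and the lowest fold change at the pseudocount of 0.1; at a pseudocount of 1 *gpib* stood at -1.01 and was no longer the lowest.

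Scaling decided how many enzymes were called in each direction. The counts of 1 higher and 11 lower became 4 higher and 6 lower with median-of-ratios scaling, and 1 higher and 16 lower as TPM, while over all tested genes the 741 higher and 3091 lower calls became 1164 and 2510, and 295 and 4620. In all 3 scalings *pfkma* was called higher and 6 enzymes were called lower. These 6 were *gpib*, *eno1a*, *pgm1*, *aldh9a1a*, *aldh9a1b* and the *aldh2* gene ENSDARG00000089924. The other 5 lower calls, *pfklb*, *ldha*, *pck2*, *adh5* and *minpp1b*, had log2 fold changes between -0.80 and -0.95 after median-of-ratios scaling and were not called there. That scaling added calls of higher level for *gpia* (1.08), *acss1* (1.08) and the *aldh2* gene ENSDARG00000028087 (1.17).

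**Figure D2:**
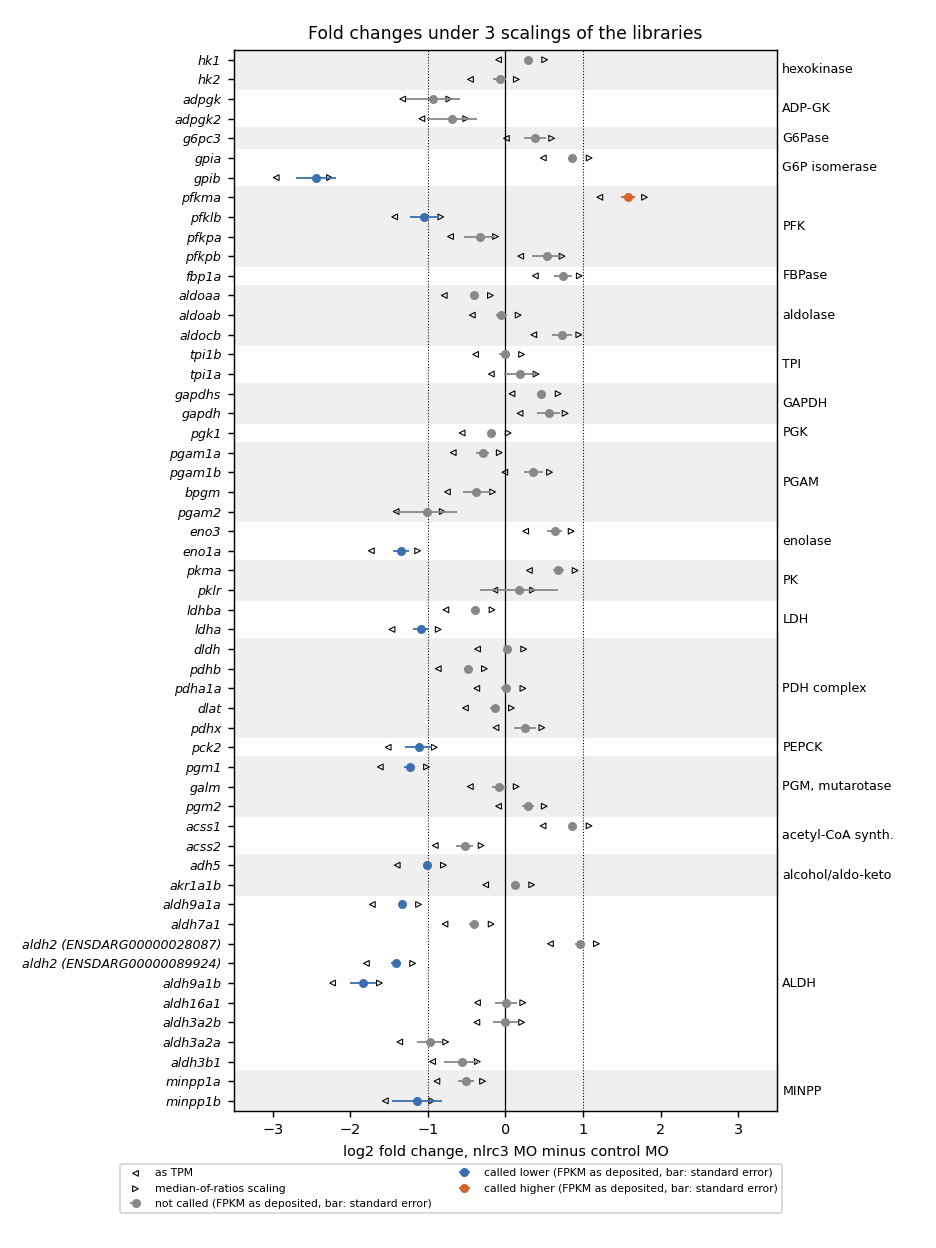
log2 fold change of 54 of the 55 tested genes, nlrc3 MO minus control MO, as deposited (filled points with standard errors, coloured where called) and after TPM or median-of-ratios scaling (open triangles); dotted lines mark the fold limits of 2 and 0.5. Rescaling shifts genes well above the pseudocount by about the same amount, while low genes such as *gpib* can shift by another. *pfkma* stays beyond the upper limit and *gpib* and *eno1a* beyond the lower limit in all 3 scalings.

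The steps differed widely in level. Because FPKM is a value per transcript length, sums over the isoenzymes of a step can be set side by side. In control MO samples the aldolase genes summed to 258 ± 4.35 FPKM (SD, n = 3), glyceraldehyde-3-phosphate dehydrogenase to 88.0 ± 1.79 FPKM, hexokinase to 45.5 ± 1.84 FPKM and lactate dehydrogenase to 96.3 ± 2.29 FPKM. Less abundant than these were enolase, at 16.1 ± 0.502 FPKM, and pyruvate kinase, at 9.65 ± 0.410 FPKM. So was glucose-6-phosphate isomerase, higher up the path, at 17.3 ± 0.597 FPKM. The committed step, phosphofructokinase, summed to 12.7 ± 0.490 FPKM. The enzymes particular to gluconeogenesis were lower still, at 4.65 ± 0.340 FPKM for glucose-6-phosphatase, 1.96 ± 0.114 FPKM for fructose-bisphosphatase and 2.68 ± 0.190 FPKM for phosphoenolpyruvate carboxykinase.

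Step sums differed between the groups in both directions. The summed level of phosphofructokinase stood at 16.4 ± 0.888 FPKM in nlrc3 MO samples, that of pyruvate kinase at 15.2 ± 1.31 FPKM and that of glucose-6-phosphate isomerase at 29.2 ± 1.28 FPKM against 17.3 ± 0.597 FPKM in control MO, all above every control MO sample. The aldolase sum stood at 197 ± 3.44 FPKM and the lactate dehydrogenase sum at 66.2 ± 1.78 FPKM, both below every control MO sample. As a percent of all FPKM the phosphofructokinase sum overlapped between the groups (log2 ratio -0.010, exact permutation p = 1.0), and the other 4 sums kept their direction without overlap. In FPKM, an exact two-sided permutation test gave p = 0.1 for each of these 5 sums, the smallest value that 3 against 3 samples allow, so none could pass 0.05. Not every other step kept its direction. The hexokinase sum was 52.6 ± 1.61 FPKM in nlrc3 MO, above every control MO sample (log2 ratio 0.21). As a percent of all FPKM the hexokinase sum lay below every control MO sample (log2 ratio -0.17). The sum over all 36 genes of glycolysis proper was 512 ± 4.48 FPKM in control MO and 504 ± 5.46 FPKM in nlrc3 MO, and the sample ranges overlapped (exact permutation p = 0.2), while as a percent of all FPKM it was 0.0975% and 0.0738% without overlap (log2 ratio -0.40, exact permutation p = 0.1). The 77 genes together summed to 1124 ± 2.19 FPKM and 1000.8 ± 3.51 FPKM, a log2 ratio of -0.17 that was 0.050 by median-of-ratios scaling but -0.55 as TPM, so its direction depended on the scaling. A single gene, *aldoaa*, held 20.9% of that sum in control MO and 17.7% in nlrc3 MO samples.

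**Figure D3:**
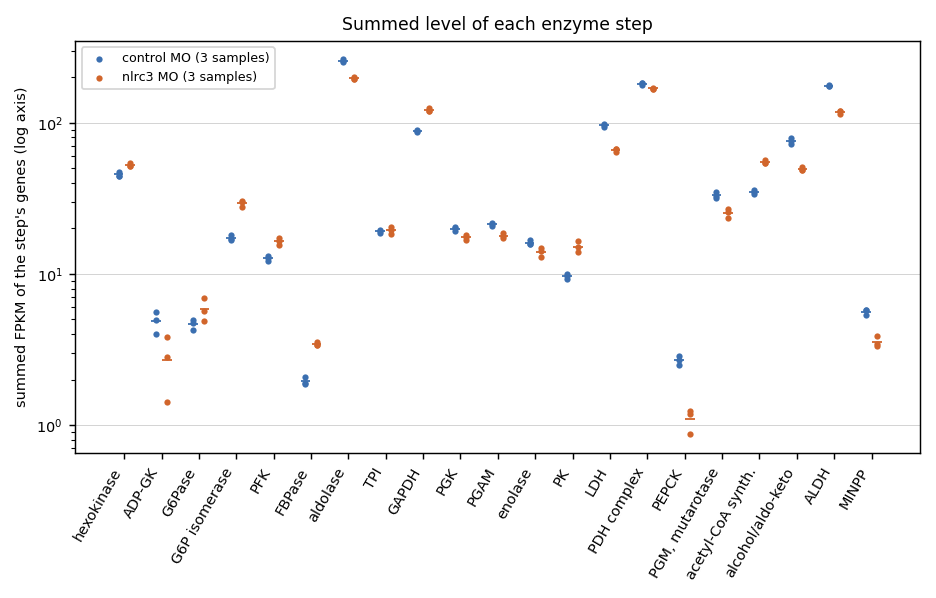
Summed FPKM (log axis) of the genes of each enzyme step in the 3 control MO (blue) and 3 nlrc3 MO (orange) samples, with a line at each group's mean. Aldolase is the most abundant step in both groups, the phosphofructokinase and pyruvate kinase sums are higher in every nlrc3 MO sample (phosphofructokinase not as a percent of all FPKM, log2 ratio -0.010), and the lactate dehydrogenase and phosphoenolpyruvate carboxykinase sums are lower in every nlrc3 MO sample.

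Glucose is trapped in the cell by hexokinase. *hk1*, the main hexokinase here, stood at 37.7, 34.6 and 36.4 FPKM in control MO against 43.2, 45.8 and 43.8 FPKM in nlrc3 MO samples. The groups did not overlap, and its log2 fold change was 0.29 (standard error 0.045, limma adjusted p = 0.000934), below the fold limit, and -0.088 as TPM. *hk2*, which in mammals is the hexokinase of insulin-sensitive tissues, lay between 7.73 and 9.03 FPKM in all 6 samples and its groups overlapped (-0.07, adjusted p = 0.459, limma). *adpgk*, a glucokinase that uses ADP in place of ATP, ranged from 3.42 to 5.07 FPKM in control MO and from 1.22 to 3.51 FPKM in nlrc3 MO samples (-0.94, adjusted p = 0.0467, limma). It was not called, but without nlrc3 MO sample 2, its highest in that group, the log2 fold change was -1.28 and the gene was called lower, and without nlrc3 MO sample 3, its lowest, it was -0.55. Its paralog *adpgk2* ranged from 0.51 to 0.61 FPKM in control MO and from 0.20 to 0.46 FPKM in nlrc3 MO samples. It did not pass the test (-0.69, adjusted p = 0.101, limma). *adpgk2* passed the filter of 0.5 FPKM only through control MO samples, so its test does not stand apart from that filter. As TPM, *adpgk* (-1.32) and *adpgk2* (-1.08) were called lower.

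Glucose phosphate reaches the path from glycogen through phosphoglucomutase. *pgm1*, the main phosphoglucomutase of mammals, stood at 17.1, 14.7 and 15.5 FPKM in control MO against 6.64, 6.70 and 6.58 FPKM in nlrc3 MO samples. Every nlrc3 MO sample lay well below every control MO sample, and the gene fell by 1.23 on the log2 scale (standard error 0.071, limma adjusted p = 4.19e-06). *pgm2*, which in mammals acts mainly on phosphopentoses, stood at 7.81, 7.66 and 7.52 FPKM in control MO against 8.52, 9.97 and 9.66 FPKM in nlrc3 MO samples (0.29, adjusted p = 0.0143, limma; -0.089 as TPM). *pgm1* was thus the more abundant gene in each control MO sample and *pgm2* in each nlrc3 MO sample. *galm*, the mutarotase that interconverts the anomers of hexoses, did not pass the test (-0.08, adjusted p = 0.512, limma).

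Glucose-6-phosphate isomerase, which makes fructose 6-phosphate, was carried almost wholly by *gpia*. *gpia* stood at 15.8, 15.5 and 16.5 FPKM in control MO against 30.0, 29.6 and 27.6 FPKM in nlrc3 MO samples, a log2 fold change of 0.86 (standard error 0.052, limma adjusted p = 5.14e-06) that stayed under the fold limit. Its duplicate *gpib* stood at 1.07, 1.58 and 1.44 FPKM in control MO against 0.19, 0.15 and 0.16 FPKM in nlrc3 MO samples. The groups lay far apart in opposite directions for the duplicates, and *gpib* fell by 2.44 on the log2 scale (standard error 0.263, limma adjusted p = 0.000121). *gpib* passed the filter of 0.5 FPKM only through its control MO samples, so its test does not stand apart from that filter. Within each sample the log2 ratio of *gpia* over *gpib*, which hardly depends on the scaling of the libraries, was 3.47 ± 0.274 in control MO and 6.78 ± 0.104 in nlrc3 MO (SD, n = 3). This difference of 3.31 rests on levels of *gpib* near the pseudocount of 0.1. With a pseudocount of 1 it was 1.84, and the fold change of *gpib* was -1.01.

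Phosphofructokinase carries out the committed step of glycolysis, and its subunits are named in mammals for muscle (*pfkm*), liver (*pfkl*) and platelets (*pfkp*). *pfkma* stood at 3.74, 3.22 and 3.35 FPKM in control MO against 9.88, 10.2 and 11.3 FPKM in nlrc3 MO samples. Each nlrc3 MO sample held more than 2 times the highest control MO value, and the gene rose by 1.58 on the log2 scale (standard error 0.094, limma adjusted p = 4.77e-06). *pfklb* stood at 6.49, 5.89 and 5.76 FPKM in control MO against 2.27, 3.85 and 2.71 FPKM in nlrc3 MO samples. The groups did not overlap, and it fell by 1.05 (standard error 0.184, limma adjusted p = 0.00172), but its call was lost without control MO sample 1 (-0.99) and without nlrc3 MO sample 1 (-0.88). *pfkpa* ranged from 1.88 to 2.52 FPKM in control MO and from 1.29 to 1.97 FPKM in nlrc3 MO with overlap (-0.33, adjusted p = 0.185, limma). *pfkpb* ranged from 0.73 to 0.97 FPKM in control MO and from 1.19 to 1.28 FPKM in nlrc3 MO (0.53, adjusted p = 0.0407, limma), under the fold limit.

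The make-up of the step stood apart as well. *pfklb* made up 47.6% ± 1.43 of phosphofructokinase FPKM in control MO and 17.8% ± 4.07 in nlrc3 MO samples, and *pfkma* 27.0% ± 1.51 and 63.9% ± 4.29 (SD, n = 3 each). The within-sample log2 ratio of *pfkma* over *pfklb* was -0.78, -0.85 and -0.76 in control MO and 2.07, 1.39 and 2.02 in nlrc3 MO samples, a difference of 2.63. The muscle-type gene was the lesser of the pair in every control MO sample and the greater in every nlrc3 MO sample. Of the 7 tested genes of the muscle marker list 0 were called by limma, beside 4.89% higher and 20.4% lower of all tested genes. At an unadjusted p under 0.05, 1 was higher and 4 were lower. Their summed level ran from 178.2 to 179 FPKM in control MO and from 158 to 163 FPKM in nlrc3 MO samples.

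Fructose-bisphosphatase opposes phosphofructokinase in gluconeogenesis. *fbp1a*, its only tested gene, stood at 1.88, 2.09 and 1.91 FPKM in control MO against 3.52, 3.13 and 3.4 FPKM in nlrc3 MO samples (0.74, adjusted p = 0.000978, limma), higher in each nlrc3 MO sample and under the fold limit.

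Aldolase splits the hexose bisphosphate into trioses. *aldoaa*, a copy of the aldolase that in mammals is typical of muscle and red cells, was the most abundant enzyme gene of the pathway in every sample. It stood at 238, 232 and 235 FPKM in control MO against 175, 180.1 and 176 FPKM in nlrc3 MO samples. All nlrc3 MO values lay below all control MO values, and the log2 fold change was -0.41 (standard error 0.024, limma adjusted p = 4.08e-06), under the fold limit. *aldocb*, related to the aldolase of mammalian brain, ranged from 3.18 to 4.43 FPKM and from 5.89 to 6.35 FPKM (0.73, adjusted p = 0.00179, limma). *aldoab* did not pass the test (-0.05, adjusted p = 0.557, limma).

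Triosephosphate isomerase equilibrates the trioses. Its genes *tpi1b* (15.4 to 18.5 FPKM over the 6 samples) and *tpi1a* (2.07 to 3.4 FPKM) had overlapping groups and did not pass the test. Glyceraldehyde-3-phosphate dehydrogenase is the first step that yields NADH, and 95.6% of its FPKM in control MO samples came from *gapdhs*. *gapdhs* stood at 82.5, 84.5 and 85.3 FPKM in control MO against 119, 114 and 115 FPKM in nlrc3 MO samples. It was higher in each nlrc3 MO sample, with a log2 fold change of 0.46 (standard error 0.031, limma adjusted p = 9.01e-06) that was 0.085 as TPM. *gapdh* ranged from 3.30 to 4.56 FPKM and from 5.05 to 6.62 FPKM (0.56, adjusted p = 0.0129, limma), and the ratio of the pair within a sample overlapped between the groups.

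The lower part of the path regains ATP. *pgk1*, phosphoglycerate kinase, stood at 19.3, 20.4 and 20.1 FPKM in control MO against 18.1, 16.9 and 17.7 FPKM in nlrc3 MO samples (-0.18, adjusted p = 0.0157, limma), a difference that was 0.035 after median-of-ratios scaling. Among the phosphoglycerate mutases, *pgam1a* ranged from 13.9 to 15.1 FPKM and from 11.02 to 13.2 FPKM (-0.30, adjusted p = 0.0156, limma), and *pgam1b* from 2.26 to 2.87 FPKM and from 3.25 to 3.43 FPKM (0.36, adjusted p = 0.0366, limma, and -0.0076 as TPM). *pgam2*, the muscle mutase of mammals, was past the fold limit but not the adjusted p (-1.01, adjusted p = 0.0552, limma), with nlrc3 MO sample 2 at 1.55 FPKM beside 0.44 and 0.72 FPKM in the others. Without that sample its log2 fold change was -1.45 and it was called lower. *bpgm*, which in mammalian red cells makes the bisphosphoglycerate that tunes haemoglobin, ranged from 2.17 to 2.96 FPKM in control MO and from 1.67 to 2.15 FPKM in nlrc3 MO and did not pass the test (-0.37, adjusted p = 0.0963, limma). This stood beside a summed level of the erythroid markers of 17549 to 17766 FPKM in control MO and 52866 to 54609 FPKM in nlrc3 MO samples. Most of that sum was the globin gene *hbae3*, at 16055 to 16265 FPKM and 49336 to 51087 FPKM (log2 fold change 1.63). The other erythroid markers had log2 fold changes from 0.99 (*klf1*) to 1.29 (*slc4a1a*).

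Enolase makes phosphoenolpyruvate, and its alpha form (*eno1*) is widespread and its beta form (*eno3*) typical of muscle in mammals. *eno1a* stood at 8.75, 9.39 and 10.7 FPKM in control MO against 4.0, 3.49 and 3.66 FPKM in nlrc3 MO samples. The nlrc3 MO samples all lay below the control MO samples, and the gene fell by 1.35 on the log2 scale (standard error 0.102, limma adjusted p = 1.85e-05). *eno3* stood at 6.88, 6.19 and 5.80 FPKM in control MO against 10.3, 8.96 and 10.2 FPKM in nlrc3 MO samples (0.63, standard error 0.093, limma adjusted p = 0.000647), under the fold limit. Enolase thus held 59.8% ± 4.40 *eno1a* in control MO and 70.3% ± 1.86 *eno3* in nlrc3 MO samples (SD, n = 3). The log2 ratio of *eno3* over *eno1a* was -0.34, -0.59 and -0.87 in control MO and 1.34, 1.34 and 1.45 in nlrc3 MO samples, a difference of 1.98.

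Pyruvate kinase closes glycolysis. *pkma*, its M-type gene, stood at 8.79, 8.90 and 9.50 FPKM in control MO against 13.7, 14.3 and 15.9 FPKM in nlrc3 MO samples. It was higher in each nlrc3 MO sample (0.68, standard error 0.073, limma adjusted p = 0.000115), under the fold limit. *pklr*, whose mammalian counterpart serves liver and red cells, stayed at 0.18 to 0.67 FPKM over all 6 samples, with overlapping groups.

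**Figure D4:**
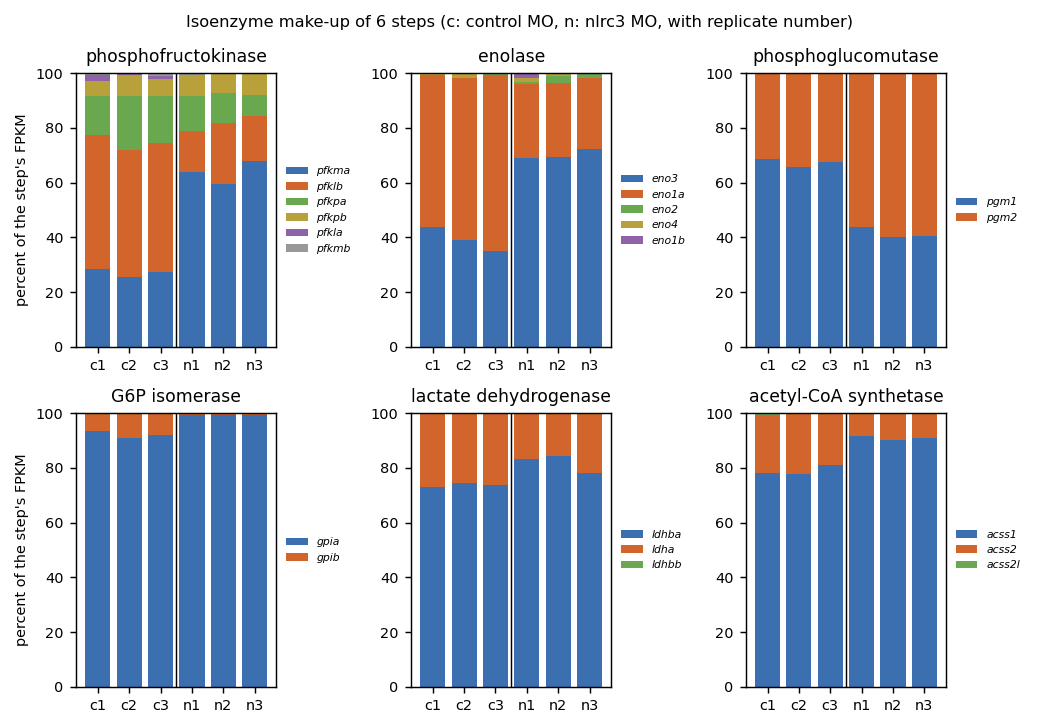
Percent of each step's FPKM held by its isoenzymes in control MO samples 1 to 3 (c1 to c3) and nlrc3 MO samples 1 to 3 (n1 to n3), for 6 steps. In phosphofructokinase, enolase and phosphoglucomutase (*pgm1* and *pgm2*, which differ in substrate in mammals) the leading gene differs between the groups. In glucose-6-phosphate isomerase, lactate dehydrogenase and acetyl-CoA synthetase the leading isoenzyme of the control MO samples holds a larger share in every nlrc3 MO sample.

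Lactate dehydrogenase links pyruvate and lactate. *ldha*, whose enzyme in mammals favours lactate production, stood at 24.95, 25.02 and 25.2 FPKM in control MO against 11.3, 10.3 and 13.97 FPKM in nlrc3 MO samples. The control MO samples lay close together and well above the nlrc3 MO samples, and the gene fell by 1.08 (standard error 0.104, limma adjusted p = 6.55e-05). The call was lost without nlrc3 MO sample 2 (-0.99). *ldhba*, a copy of the heart-type gene and the more abundant of the pair, stood at 68.6, 72.9 and 71.7 FPKM in control MO against 56.1, 56.5 and 50.2 FPKM in nlrc3 MO samples (-0.39, adjusted p = 0.000431, limma), lower in each nlrc3 MO sample and under the fold limit. The share of *ldhba* was 73.8% ± 0.572 in control MO and 81.9% ± 3.29 in nlrc3 MO (SD, n = 3).

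The pyruvate dehydrogenase complex carries pyruvate into the mitochondrial pathway as acetyl-CoA. Of its 5 tested subunit genes 0 were called by limma, beside 4.89% higher and 20.4% lower of all tested genes. Only 1 had an unadjusted p under 0.05. That gene was *pdhb*, the beta subunit of the dehydrogenase, at 49.9, 53.5 and 49.4 FPKM in control MO and 36.7, 34.9 and 37.3 FPKM in nlrc3 MO samples (-0.49, adjusted p = 5.81e-05). Its partner *pdha1a*, the alpha subunit, ranged from 40.3 to 41.3 FPKM and from 37.3 to 43.4 FPKM with overlap (0.01, adjusted p = 0.912, limma). *dldh*, the dihydrolipoamide dehydrogenase that other mitochondrial complexes share, ranged from 58.8 to 61.3 FPKM and from 58.8 to 62.5 FPKM (0.02, adjusted p = 0.677, limma). *dlat*, the acetyltransferase core, and *pdhx*, its binding protein, had log2 fold changes of -0.14 and 0.25 and did not pass the test.

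Of the 9 genes particular to gluconeogenesis, 3 passed the filter. *pck2*, the mitochondrial phosphoenolpyruvate carboxykinase, stood at 2.12, 2.45 and 2.49 FPKM in control MO against 1.19, 1.04 and 0.87 FPKM in nlrc3 MO samples. It fell by 1.12 (standard error 0.171, limma adjusted p = 0.000816), and the groups did not overlap. *pck1*, the cytosolic form, was not tested and had at most 0.37 FPKM in any sample. *g6pc3*, the widely expressed glucose-6-phosphatase, ranged from 4.03 to 4.59 FPKM and from 4.73 to 6.84 FPKM (0.38, adjusted p = 0.0454, limma), under the fold limit. The other 3 glucose-6-phosphatase genes did not exceed 0.34 FPKM.

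The annotation also places the handling of acetate, alcohols and aldehydes in this pathway, and the inositol polyphosphate phosphatases *minpp1a* and *minpp1b*. Of the 15 tested genes of these side reactions together, 5 were called lower (33.3%, beside 20.4% of all tested genes). Among the acetyl-CoA synthetases, *acss1*, which acts in mitochondria, stood at 26.2, 28.2 and 28.1 FPKM in control MO against 49.8, 48.7 and 51.5 FPKM in nlrc3 MO samples (0.86, standard error 0.044, limma adjusted p = 2.15e-06), under the fold limit. *acss2*, the form of cytosol and nucleus, ranged from 6.50 to 7.90 FPKM and from 4.48 to 5.20 FPKM (-0.53, adjusted p = 0.00321, limma). The mitochondrial gene was thus higher and the cytosolic gene lower in each nlrc3 MO sample, and their log2 ratio differed by 1.39. *adh5*, the alcohol dehydrogenase that clears formaldehyde bound to glutathione, stood at 52.3, 55.8 and 58.6 FPKM in control MO against 26.4, 27.6 and 28.2 FPKM in nlrc3 MO samples. It fell by 1.02 (standard error 0.052, limma adjusted p = 2.06e-06), close to the fold limit, and its call was lost without control MO sample 3 (-0.98) and without nlrc3 MO sample 1 (-0.99). The aldo-keto reductase gene *akr1a1b* did not pass the test (0.12, adjusted p = 0.0803, limma).

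Of the 9 tested aldehyde dehydrogenases 3 were called lower (33.3%, beside 20.4% of all tested genes). *aldh9a1a*, whose mammalian counterpart works in carnitine synthesis, was the most abundant of them in control MO, at 85.6, 83.9 and 84.8 FPKM, and stood at 33.0, 33.6 and 33.9 FPKM in nlrc3 MO samples. The samples of each group lay close together and the groups far apart, and the gene fell by 1.34 on the log2 scale (standard error 0.031, limma adjusted p = 3.51e-08). Its duplicate *aldh9a1b* stood at 6.31, 6.55 and 5.76 FPKM in control MO against 2.13, 1.60 and 1.35 FPKM in nlrc3 MO samples and fell by 1.84 (standard error 0.169, limma adjusted p = 5.15e-05). Both copies were therefore lower in each nlrc3 MO sample.

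The table lists *aldh2*, the mitochondrial enzyme of acetaldehyde oxidation, under 2 identifiers that differed in opposite directions. ENSDARG00000028087 stood at 19.2, 21.7 and 21.9 FPKM in control MO against 40.0, 39.3 and 42.8 FPKM in nlrc3 MO samples (0.96, standard error 0.063, limma adjusted p = 8.63e-06), just under the fold limit. ENSDARG00000089924 stood at 16.7, 15.8 and 16.2 FPKM in control MO against 5.96, 5.74 and 6.44 FPKM in nlrc3 MO samples and fell by 1.41 (standard error 0.067, limma adjusted p = 1.41e-06). These are copies of a single gene family, and how reads that fit both were divided is not stated, so their separate levels are uncertain. Of the other aldehyde dehydrogenases, *aldh7a1*, a lysine-degrading enzyme, stood at 36.5 FPKM in each control MO sample and between 25.9 and 30.5 FPKM in nlrc3 MO (-0.40, adjusted p = 0.000937, limma). *aldh3a2a*, a fatty aldehyde dehydrogenase, ranged from 2.18 to 2.38 FPKM and from 0.94 to 1.24 FPKM (-0.97, adjusted p = 0.00132, limma), and became called without control MO sample 2 (-1.01), nlrc3 MO sample 2 (-1.03) or nlrc3 MO sample 3 (-1.04). *aldh16a1*, *aldh3a2b* and *aldh3b1* did not pass the test.

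*minpp1b*, an inositol polyphosphate phosphatase that also acts on bisphosphoglycerate in mammals, stood at 1.73, 1.19 and 1.36 FPKM in control MO against 0.92, 0.36 and 0.58 FPKM in nlrc3 MO samples. It fell by 1.14 (standard error 0.322, limma adjusted p = 0.0159), and its call was lost without control MO sample 1 (-1.01) and without nlrc3 MO sample 2 (-0.86). Its duplicate *minpp1a* ranged from 4.02 to 4.43 FPKM and from 2.76 to 3.08 FPKM (-0.51, adjusted p = 0.00327, limma).

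Over the whole pathway, 20 sets of isoenzymes, grouped by the enzyme name in the gene symbol, had 2 or more genes. In 11 of them a single gene held over 80% of the set's FPKM in both groups. The leading gene was the same in both groups in 16 sets and differed in 4, which were phosphofructokinase, enolase, phosphoglucomutase and the aldehyde dehydrogenases. The phosphoglucomutases and the aldehyde dehydrogenases, as described above, do not all act on the same substrate, so those sets are families rather than strict isoenzymes. Among the aldehyde dehydrogenases *aldh9a1a* held 48.3% ± 0.622 in control MO and 28.4% ± 0.765 in nlrc3 MO, and the *aldh2* gene ENSDARG00000028087 held 11.9% ± 0.849 and 34.4% ± 1.05 (SD, n = 3). The gene with the highest mean FPKM over all 6 samples was then set against each other tested gene of its set. This gave within-sample log2 ratios for 28 pairs in 15 sets. That gene was chosen from the values compared, and whether a ratio counts as higher or lower depends on the choice. The ratio did not overlap between the groups in 20 pairs, 10 of them higher and 10 lower in nlrc3 MO, and differed by more than 1 in 11. These 20 were 71.4% of the pairs, near the 68.9% of single genes whose groups did not overlap, and 8 of the 28 pairs share *aldh9a1a*. Each of the 20 non-overlapping pairs had an exact two-sided permutation p = 0.1, the smallest that 3 against 3 samples allow, and a Benjamini-Hochberg adjusted p = 0.14 over the 28 pairs.

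Genes around the pathway were counted by the same test, on FPKM as deposited. These lists were not counted under the other scalings, under which calls of genes near the fold limit could differ. Of 11 tested glucose and lactate transporters, 1 was called higher and 2 lower, beside 4.89% higher and 20.4% lower of all tested genes. The higher gene was *slc2a6*, a glucose transporter family member, at 1.34 ± 0.0513 FPKM in control MO and 2.90 ± 0.257 FPKM in nlrc3 MO (1.05, limma adjusted p = 0.000311). The lower genes were the monocarboxylate transporters *slc16a1b* (16.6 ± 1.14 and 7.93 ± 0.687 FPKM, -1.05, adjusted p = 2.57e-05, limma) and *slc16a3* (0.990 ± 0.111 and 0.0800 ± 0.0985 FPKM, -2.73, adjusted p = 0.00107, limma), which carry lactate across the membrane. *bsg*, their chaperone, was at 109 ± 2.12 and 71.7 ± 3.51 FPKM (-0.60, adjusted p = 9.61e-06, limma), under the fold limit. *slc16a3* stood at 0.19, 0.05 and 0.0 FPKM in nlrc3 MO samples, near or below the pseudocount of 0.1, so the size of its fold change depends on the pseudocount. It passed the filter only through its control MO samples.

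Of 15 tested regulators of flux, 0 were called higher and 2 lower by limma, beside 4.89% higher and 20.4% lower of all tested genes. At an unadjusted p under 0.05, 2 were higher and 5 lower. Both called genes belonged to the bifunctional enzymes that make and remove the fructose bisphosphate which activates phosphofructokinase. *pfkfb3* stood at 8.39, 10.5 and 9.66 FPKM in control MO against 2.62, 3.60 and 2.52 FPKM in nlrc3 MO samples (-1.69, standard error 0.154, limma adjusted p = 5.04e-05). *pfkfb1* stood at 3.90, 4.09 and 3.63 FPKM in control MO against 0.48, 0.40 and 0.25 FPKM in nlrc3 MO samples (-3.09, standard error 0.224, limma adjusted p = 1.41e-05). *pfkfb1* passed the filter of 0.5 FPKM only through control MO, and at its nlrc3 MO levels the pseudocount of 0.1 affects the size of the fold change. *pfkfb4b*, the most abundant gene of that family, stood at 21.8, 21.9 and 22.1 FPKM in control MO against 42.1, 42.0 and 40.2 FPKM in nlrc3 MO samples (0.91, standard error 0.038, limma adjusted p = 7.43e-07), under the fold limit. Genes of this family thus lay on either side of 0.

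In the pentose phosphate branch 1 of 8 tested genes was called lower, beside 20.4% of all tested genes. This gene was *rpia*, the ribose phosphate isomerase, at 18.2 ± 0.163 FPKM in control MO and 9.02 ± 1.20 FPKM in nlrc3 MO (-1.01, limma adjusted p = 5.42e-05). Of 11 tested glycogen enzymes 0 were called by limma, beside 4.89% higher and 20.4% lower of all tested genes. At a limma adjusted p under 0.05 and with no fold limit, 4 were higher (*gyg1a*, *pygb*, *ugp2b* and *ugp2a*) and 0 lower, beside 63.1% of all tested genes in either direction.

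The remaining 22 genes did not pass the filter. No value among them exceeded 1.04 FPKM, reached by *aldh3a1* in control MO sample 2, and *g6pcb* was listed at 0 in each of the 6 samples. They included further isoenzymes of the steps above such as *gck*, *pfkla*, *pfkmb*, *aldoca*, *eno1b*, *eno2*, *pkmb*, *ldhbb* and *pdha1b*. At these low levels 7 of the 22 lay lower and 1 higher in nlrc3 MO with no overlap of the groups. No share over all genes that missed the filter was computed to set beside these counts. Fewer genes of the whole table were above 0 in nlrc3 MO samples (19060 to 19609) than in control MO samples (21041 to 21737). With no filter on low values, *eno2*, the neuronal enolase of mammals, was called higher (1.42), and *acss2l*, *pck1*, *aldh3a1* and *hkdc1* were called lower (-1.03 to -1.46).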

How the data were processed

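EGFP+ cells of 3 control MO and 3 nlrc3 MO samples were profiled by RNA-seq. By the methods, the authors aligned single-end reads with HISAT2 to an Ensembl zebrafish genome and estimated FPKM with StringTie and ballgown; the submitters' processing notes name CASAVA 1.8, Bowtie 0.12.2 and the mouse build mm8 instead, while the gene identifiers are zebrafish. The deposited table holds FPKM per gene, no counts, and columns of the authors' own comparison (fold changes, p-values, q-values, significance), which were not used. Its column headings (Mo and S) are not the sample titles; they were matched to the groups through headings in the study's source data and the control's name, Standard-MO.

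Genes with 0.5 FPKM or more in at least 3 samples (15155 of 32057) were tested with limma 3.58.1 (R 4.3.3) on log2(FPKM + 0.1) with a mean trend and Benjamini-Hochberg adjustment, and called past a fold of 2 (or 0.5) at an adjusted p under 0.05. The fit was tested on simulated data. The 28 isoenzyme ratios and the summed levels were compared by exact two-sided permutation. Named in full were called genes, the most abundant isoenzyme of each step and all isoenzymes of a step with a call; others, such as *pgam2* and *pdhb*, are given by range or singled out after their values were seen. The members and lists were chosen with earlier results of these data known. Alternatives changed the pseudocount, filter, scaling, variance trend, fold limit and replicate block, or left out each sample. The values of 1 tested gene are not reported here. No coordinates or sequences are given, because the available gene table is of another build.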

Additional observations from a re-analysis of the deposited data

How the results depend on the processing

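No depth can be read from FPKM, which limits genes of low level most. With a pseudocount of 1, called genes numbered 2298 in place of 3832 and enzymes called lower 7 in place of 11; *pfklb* (-0.86), *pck2* (-0.72), *adh5* (-0.99) and *minpp1b* (-0.59) were lost, and *gpib* stood at -1.01 in place of -2.44. Without the fold limit, 9558 genes and 37 enzymes (15 higher, 22 lower) were counted. Without the filter on low values 4777 genes in place of 3832 and 17 enzymes (2 higher, 15 lower) were called. The enzymes' median log2 fold change was then -0.31 in place of -0.14.

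As TPM the enzymes' median was -0.52 and the log2 ratio of their summed FPKM -0.55, and *hk1* (-0.088) and *pgm2* (-0.089) turned to below 0. After median-of-ratios scaling the median was 0.078, the summed ratio 0.050 and *pgk1* 0.035, all 3 above 0, with 4 enzymes called higher and 6 lower. Scaling without the globins gave a summed ratio of -0.18. Scaling to equal totals moves genes well above the pseudocount by about the same shift. Low genes can move by another amount, as *gpib* (-2.44 as deposited, -2.96 as TPM) beside *aldoaa* (-0.41 and -0.79). Which scaling is right was not tested.

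Leaving out each sample in turn gave 9 to 12 enzymes called lower, 1 called higher, 10 to 13 called in all and 3691 to 3862 called genes. The median ran from -0.17 to -0.10, the summed ratio stayed at -0.17, and 20 to 23 of the 28 isoenzyme ratios did not overlap. The calls of *pfkma*, *gpib*, *eno1a*, *pgm1*, *aldh9a1a*, *aldh9a1b* and *aldh2* (ENSDARG00000089924) held in each of the 15 alternatives. Of these genes, *gpib* passed the filter of the main fit only through its control MO samples.

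The labels give both groups the replicate numbers 1 to 3. Samples with the same number did not deviate together (Pearson r across 2807 genes of -0.19, -0.041 and -0.30), so the numbers were not taken as pairs. With the replicate block, 3845 genes and 13 enzymes (1 higher, 12 lower) were called, and *pgam2* was the addition.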
